A study of Mus musculus with 12 samples.

Results

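AtT-20 cells made to express Pax7-465, a Pax7 shortened after residue 465, were compared with AtT-20 cells made to express Pax3, the paralogue of Pax7. The comparison takes the 2 Pax7-465 and the 2 Pax3 RNA-Seq libraries, 4 of the 12 libraries used here, and every gene with at least 1 FPKM (fragments scaled to gene length and library size) in at least 2 of these 4. Of the 16385 genes in the deposited table, 12004 were kept in this way. AtT-20 is a mouse pituitary tumor line with a corticotrope character. The study asked which parts of Pax7 its action on gene expression depends on, and Pax7-465 and Pax3 both lack the C-terminal end of Pax7. Pax7-465 cells carry the truncated reference Pax7, and Pax3 cells carry Pax3 with the Q+GL- form of the paired domain. The 3 further groups used as a reference carry full-length Pax7 isoforms named Q+GL+, Q-GL+ and Q-GL- for a glutamine and a glycine-leucine pair in the paired domain, with 2 libraries each. None of them is Q+GL-, the full-length reference form that Pax7-465 shortens. By the study's methods, the Pax7 proteins of these groups carried Flag tags at both ends and were expressed from a retroviral vector under the CMV promoter. They were studied in drug-selected pools of many colonies rather than in single clones. The methods give these details for Pax7 constructs, and the tag and vector of Pax3 are not stated. The labels do not say whether the libraries of a group came from separate infections, and the p-values therefore reflect only how far these libraries differ, which may be technical.

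Pax3 and Pax7 are transcription factors that bind DNA through a paired domain and a homeodomain. Pax7 is a pioneer factor, which means that it can bind closed chromatin and open it, and it is known for setting melanotrope identity in the intermediate lobe of the pituitary. Melanotropes and corticotropes both depend on the T-box factor Tpit (gene Tbx19) and both make the hormone precursor POMC, but melanotropes cut it further with the convertase PC2 (gene Pcsk2).

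The 4 libraries were close to each other over the genes tested. On the log2(FPKM + 1) scale the replicates correlated at r = 0.989 in Pax7-465 and in Pax3 cells, and libraries of the 2 groups at 0.985 to 0.988. Pax7-465 replicate 1 correlated slightly better with a Q-GL+ library (0.991) than with its own replicate, as did Pax7-465 replicate 2 with a Q+GL+ library (0.9898 against 0.9891) and Pax3 replicate 2 with 3 isoform libraries, up to 0.991 with Q-GL+ replicate 1. The summed FPKM lay between 413794 and 483161, with Pax3 replicate 1 at the low end and Pax3 replicate 2 at the high end. The small nuclear RNA Rn7sk took 8.92% and 9.27% of the summed FPKM in Pax3 libraries and 7.34% and 7.29% in Pax7-465 libraries, and its part in the differences below was not tested. The table gives no read counts. The depth behind each value is therefore unknown and no counting interval can be given. The corticotrope character was present in all 4 libraries, with Tbx19 between 117 and 134 FPKM and Pomc between 5112 and 8395 FPKM.

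Pax7 was at 109 and 113 FPKM in the Pax7-465 libraries and at 0.159 and 0.161 FPKM in the Pax3 libraries, against 93.9 to 104 FPKM in the 6 isoform libraries. The Pax7-465 transcript lay 0.16 above the isoform mean on the log2 scale (SE 0.06, limma adjusted p = 0.48). The level of the introduced Pax3 was not analysed here, so the Pax3 libraries were checked only by their lack of Pax7 transcript.

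Pax7-465 cells had more genes above Pax3 cells than below them. In 1 limma fit of the 10 libraries of these 5 groups, 107 of the 12004 genes (0.891%) passed the test between Pax7-465 and Pax3 at a Benjamini-Hochberg adjusted p under 0.05, of which 77 (0.641%) were higher and 30 (0.25%) lower in Pax7-465 cells. All differences are on the log2(FPKM + 1) scale, which understates changes of weakly expressed genes. No library used here is labelled as control AtT-20 cells, so a rise or fall below is relative to Pax3 cells only. The changes that passed began at 0.38, while the median standard error of a difference was 0.11 and the median over all genes was 0.01. A difference of at least 1 was seen for 22 of the called genes (0.183% of the genes tested), 21 higher and 1 lower (0.00833%), the latter being the predicted gene Gm15899. Without Pax7-465 replicate 1 the counts fell to 42 higher and 6 lower, without its replicate 2 to 33 and 11, without Pax3 replicate 1 to 31 and 13, and without Pax3 replicate 2 to 61 and 4.

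**Figure D1:**
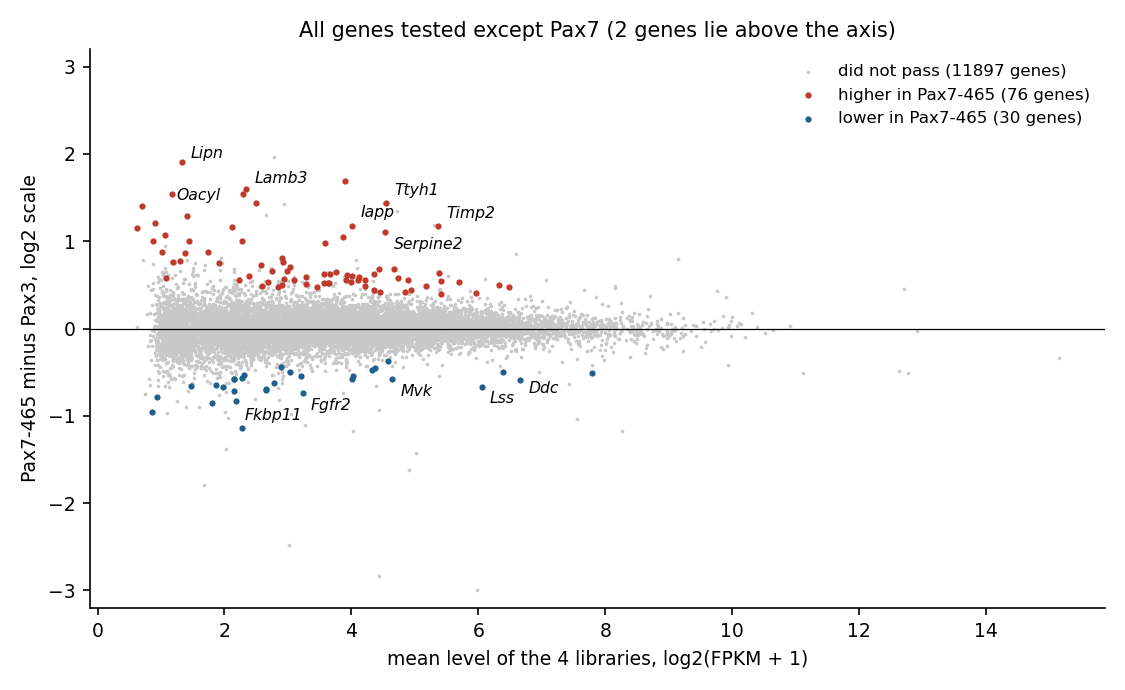
Each point is a gene, with its mean level in the 4 libraries in log2(FPKM + 1) on the horizontal axis and the log2 difference of Pax7-465 minus Pax3 on the vertical axis. The 76 genes higher in Pax7-465 cells (red, Pax7 itself not drawn) reach 1.91 at Lipn, the 30 lower ones (blue) mostly stay above -1, and 2 grey genes lie beyond the upper end of the axis.

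A further 20 genes differed by at least 1 without passing, 8 higher and 12 lower, and 9 of them were listed at 0 in some of the 4 libraries. The small nucleolar RNA Snord104 was listed at 0 in both Pax3 libraries and at 2286 and 2206 FPKM in the Pax7-465 libraries. Its SE was 4.88 (adjusted p = 0.55), and it was also listed at 0 in Q+GL+ replicate 1, Q-GL+ replicate 1 and both Q-GL- libraries, with 2828 FPKM in Q+GL+ replicate 2 and 1576 FPKM in Q-GL+ replicate 2. These genes were chosen for mention after their values were seen.

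The named genes with the largest rise after Pax7 were Lipn, Lamb3, Klk14 and Oacyl. Lipn, a member of the acid lipase family, was at 3.84 and 3.96 FPKM in Pax7-465 and at 0.41 and 0.205 FPKM in Pax3 libraries. This difference of 1.91 (SE 0.12, adjusted p = 2.4e-05) was the largest among named genes after Pax7. Lipc, which encodes hepatic lipase, was at 1.73 and 1.94 FPKM against 0.199 and 0.255 FPKM, a rise of 1.21 (SE 0.15, adjusted p = 0.0026). For both lipases the Pax3 libraries lay below 0.5 FPKM and the groups were far apart. Klk14, a kallikrein serine protease, was at 3.51 and 2.27 FPKM against 0.272 and 0.36 FPKM (1.55, SE 0.17, adjusted p = 0.0017), and its Pax7-465 libraries differed more from each other than those of either lipase.

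Lamb3, the beta-3 chain of a basement membrane laminin, was at 6.83 and 8.92 FPKM in Pax7-465 and at 2.12 and 1.72 FPKM in Pax3 libraries, a rise of 1.60 (SE 0.14, adjusted p = 0.00026). Timp2, an inhibitor of matrix metalloproteinases, was expressed at a higher level, with 58.8 and 63.8 FPKM against 25.9 and 27.2 FPKM (1.18, SE 0.08, adjusted p = 2.4e-05). Serpine2, which encodes the protease inhibitor nexin-1, was at 33.6 and 32.4 FPKM against 15.0 and 14.6 FPKM (1.10, SE 0.08, adjusted p = 4.5e-05). In each of these genes the lower Pax7-465 library lay well above the higher Pax3 library.

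Oacyl, a melanotrope marker, was at 7.12 and 7.65 FPKM in Pax7-465 and at 1.69 and 2.08 FPKM in Pax3 libraries (1.54, SE 0.10, adjusted p = 2.6e-05). Iapp, the gene of the peptide hormone amylin, was at 23.1 and 23.6 FPKM against 9.93 and 9.61 FPKM (1.18, SE 0.09, adjusted p = 3.8e-05). Rgs4, which shortens G-protein signals, was at 5.68 and 5.37 FPKM against 1.69 and 2.15 FPKM (1.16, SE 0.11, adjusted p = 0.00027). The replicates of these genes were tightly spaced, and the groups did not overlap.

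Mybpc1, a myosin-binding protein of slow muscle fibers, was at 7.66 and 9.02 FPKM in Pax7-465 and at 2.33 and 2.56 FPKM in Pax3 libraries (1.44, SE 0.12, adjusted p = 0.00011). Ttyh1, a membrane protein of the tweety family, was at 31.3 and 44.4 FPKM against 11.5 and 15.0 FPKM (1.44, SE 0.16, adjusted p = 0.0026). Cabp7, a calcium-binding protein, was at 2.76 and 3.59 FPKM against 0.607 and 0.808 FPKM (1.29, SE 0.14, adjusted p = 0.0016). The predicted genes 2210407C18Rik (1.69) and Gm13713 (1.40) rose as well but were passed over by the naming rule. The 12 named genes with the largest rise, Pax7 included, all passed under every alternative that kept the gene, those leaving out a library among them. Lamb3, Timp2, Klk14, Ttyh1, Cabp7 and Lipc overlap other annotated genes, and it is not given in the sources used here whether counting used strand.

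**Figure D2:**
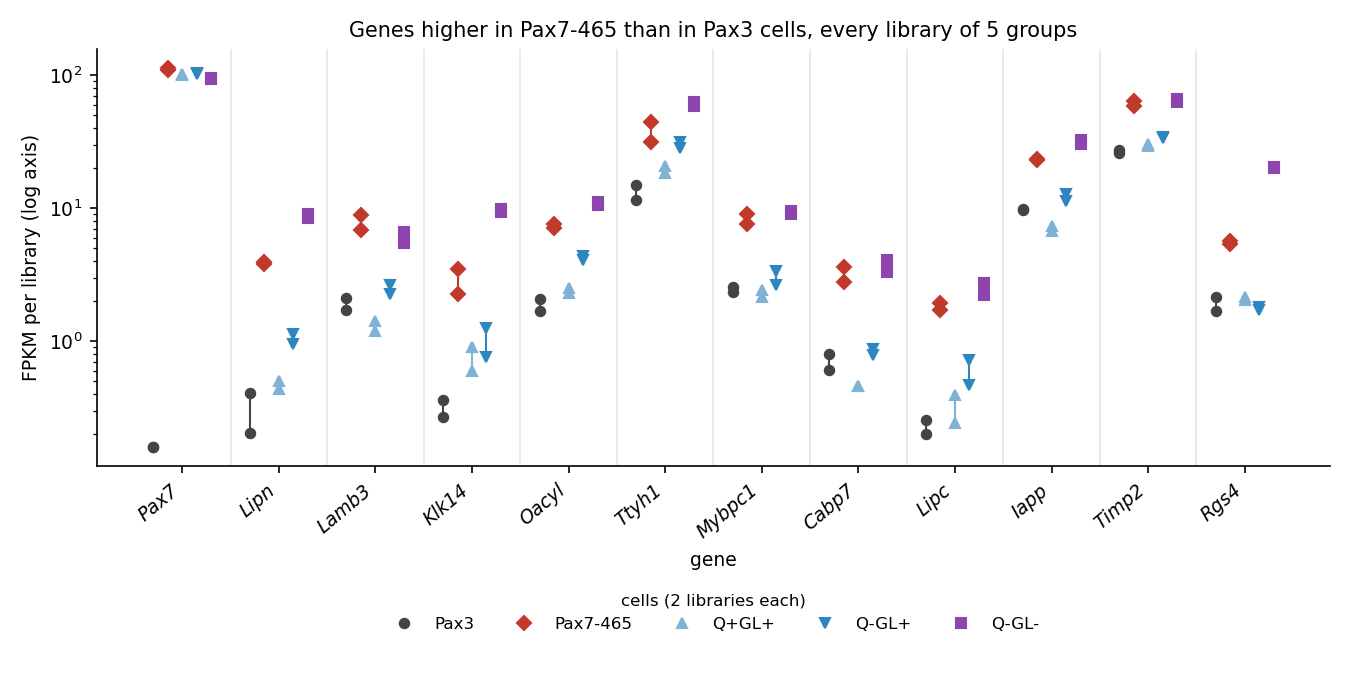
FPKM on a log axis in every library of Pax3, Pax7-465 and the 3 full-length isoform groups for the 12 genes with the largest rise, predicted genes left out, in Pax7-465 over Pax3 cells, 2 points per group joined by a line. The red Pax7-465 points lie above the black Pax3 points in every gene, and for Rgs4 they lie between Pax3 (1.69 and 2.15) and Q-GL- cells (19.9 and 20.5).

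The named genes with the largest fall were Fkbp11, Chst15 and Fgfr2. Fkbp11, a proline isomerase of the endoplasmic reticulum, was at 2.83 and 2.01 FPKM in Pax7-465 and at 5.08 and 5.02 FPKM in Pax3 libraries and fell by 0.83 (SE 0.17, adjusted p = 0.046). Chst15, a chondroitin sulfotransferase, was at 0.47 and 0.432 FPKM against 1.46 and 1.56 FPKM (-0.79, SE 0.13, adjusted p = 0.017). Only the Pax3 libraries held Chst15 above 0.7 FPKM among the 10 libraries of the fit, the 6 isoform libraries lying between 0.336 and 0.678 FPKM. Fgfr2, a fibroblast growth factor receptor, was at 6.74 and 5.81 FPKM against 10.7 and 11.6 FPKM (-0.74, SE 0.12, adjusted p = 0.014). The spans given for Chst15 and Fgfr2 overlap on the same strand. That of Fgfr2 runs from 130162450 to 133123350 on chromosome 7 and overlaps many further genes on this strand, such as Ate1, Oat and Ctbp2. Reads of these genes may therefore not have been kept apart, which limits the Fgfr2 value in particular.

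Lss, which encodes lanosterol synthase of the cholesterol pathway, was at 52.0 and 51.3 FPKM in Pax7-465 and at 82.5 and 82.8 FPKM in Pax3 libraries and fell by 0.67 (SE 0.09, adjusted p = 0.0038). Ddc, the decarboxylase that makes dopamine and serotonin, was at 76.8 and 85.4 FPKM against 113 and 134 FPKM (-0.59, SE 0.10, adjusted p = 0.019). Ckb, the brain creatine kinase, was at 3.67 and 4.16 FPKM against 6.82 and 7.17 FPKM (-0.70, SE 0.11, adjusted p = 0.014). No library of one group reached the other group in any of these genes.

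Of the remaining large falls, Cds1, an enzyme of phospholipid synthesis, fell by 0.66, Fam81a by 0.69, Uap1l1 by 0.72 and Vwde by 0.65, and Lmo2, a LIM-only transcriptional cofactor, fell by 0.62. Among these and the genes above, Lss alone of the 12 largest falls that met the naming rule, which passes over predicted genes such as Gm15899, passed under all of its 15 alternatives. Fkbp11 passed under 5 of 15, Vwde under 5 of 14 and Lmo2 under 4 of 15, and their adjusted p with all libraries lay between 0.046 and 0.05. The other 11 lost the call without Pax3 replicate 2, and Fkbp11, Chst15, Cds1 and Vwde lost it whichever of the 4 libraries was left out. Over the alternatives the highest adjusted p was 0.12 for Chst15, Fgfr2 and Ddc, 0.098 for Ckb and 0.075 for Fam81a.

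**Figure D3:**
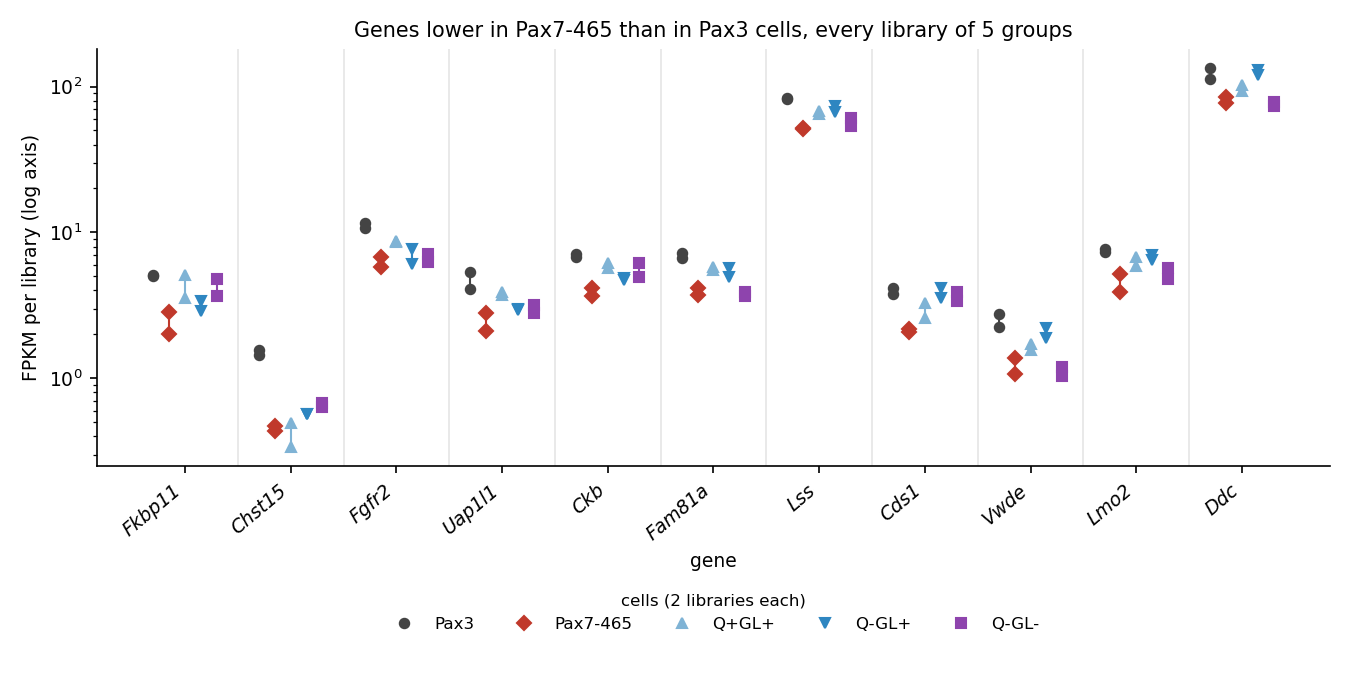
FPKM on a log axis in every library of the 5 groups for 11 of the 12 genes with the largest fall, predicted genes left out, in Pax7-465 relative to Pax3 cells, 2 points per group joined by a line. The Pax3 points lie above the Pax7-465 points in each gene, and for Chst15 the Pax3 points (1.46 and 1.56) stand above all other groups.

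Among cell type markers, Oacyl and Megf11 rose besides the introduced Pax7. Of the 5 melanotrope markers tested, 3 passed as higher, against 0.641% of all genes tested. They were Oacyl, Megf11 and the introduced Pax7, whose difference follows from the constructs. The markers were chosen with earlier results of these libraries known and are no independent evidence. The other 2 were Pcsk2 and Pomc, and Pomc is made by corticotropes as well. All 5 had both Pax7-465 libraries above both Pax3 libraries, as had 19.5% of all genes tested. Megf11, a membrane protein of the multiple EGF-like family, was at 99.2 and 111 FPKM against 71.4 and 79.2 FPKM (0.48, SE 0.09, adjusted p = 0.043), but passed under only 7 of 15 alternatives and in none that left out a library of these 4 (adjusted p up to 0.24). Pcsk2 was at 20.8 and 22 FPKM in Pax7-465 and at 17.2 and 18.9 FPKM in Pax3 libraries, with a difference of 0.24 (SE 0.08) that did not pass (adjusted p = 0.30). Pomc was at 7303 and 8395 FPKM against 5112 and 6422 FPKM (0.45, SE 0.14, adjusted p = 0.23). It passed with quantile normalization, at an adjusted p of 0.0051.

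Of 7 corticotrope markers tested, a list that leaves out Pomc, 0 passed in either direction, with a median of -0.06. The closest was Pcsk1, the convertase shared by corticotropes and melanotropes, at 318 and 348 FPKM against 225 and 259 FPKM (0.46, SE 0.10, adjusted p = 0.061). Pcsk1 passed under 4 of 15 alternatives, namely quantile normalization (adjusted p = 0.00018), median centring, all 12 libraries and without Pax3 replicate 2. Tbx19 was at 117 and 124 FPKM against 119 and 134 FPKM (-0.06, SE 0.09, adjusted p = 0.90). The glucocorticoid receptor gene Nr3c1 was at 29.5 and 29.9 FPKM against 34.4 and 35.3 FPKM (-0.22, adjusted p = 0.38).

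A list of 13 melanotrope genes was chosen in earlier work on these same libraries and is therefore no independent evidence. It held 10 higher and 1 lower gene, against 0.641% and 0.25% of all genes tested. Its median difference was 1.16, beside 0.01 over all genes. Besides genes named above, Kit, a receptor tyrosine kinase, rose from 3.22 and 3.30 FPKM in Pax3 to 5.68 and 5.21 FPKM in Pax7-465 libraries (0.60, SE 0.11, adjusted p = 0.024). Eln, which encodes elastin, rose from 15.0 and 14.3 to 21.2 and 20.8 FPKM (0.49, SE 0.09, adjusted p = 0.034). The member that fell was Mest, an imprinted gene, at 68.9 and 71.0 FPKM against 97.7 and 100.4 FPKM (-0.50, SE 0.08, adjusted p = 0.019). Pygm, muscle glycogen phosphorylase, did not pass (-0.19, adjusted p = 0.78), nor did Lmcd1 outside the list (0.02, adjusted p = 0.98). Pde2a was listed at 0 in all 10 libraries of the fit but at 11.5 FPKM in each library labelled NoTag, which the fit leaves out. Likewise, 739 genes were at 0 in the 4 libraries and above 0 in both NoTag libraries. Whether such a 0 stands for absent expression was not tested. Kit, Eln and Mest each lost the call when any of the 4 libraries was left out, with adjusted p up to 0.16, 0.17 and 0.12 over the alternatives.

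Extracellular matrix genes had a median difference of 0.40 over 10 members tested, beside 0.01 over all genes. Of the 10, 4 were higher and 0 lower, against 0.641% and 0.25% of all genes tested. With no filter beyond a value above 0, the median over 20 members was 0.067 and 3 were higher. The 4 were Timp2, Serpine2, Eln and Col18a1, the collagen from which endostatin is cut. Col18a1 was at 8.98 and 9.80 FPKM in Pax7-465 and at 5.97 and 6.19 FPKM in Pax3 libraries (0.55, SE 0.09, adjusted p = 0.019), and lost the call whichever of the 4 libraries was left out (adjusted p up to 0.14). Markers of fibroblasts, endothelium and blood did not exceed 1.07 FPKM in any of the 4 libraries, and 3 of the 5 found in the table were above 0 in some library. Csf1r and Pdgfra, markers of macrophages and fibroblasts, were at 0 in all 4. The summed level of the list was 0.889 and 0.927 FPKM in Pax7-465 and 1.20 and 1.48 FPKM in Pax3 libraries.

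Of the type I interferon response genes, Dhx58 and Irf7 passed as lower in Pax7-465 than in Pax3 cells. Interferon-stimulated genes act against viruses, and the factor IRF7 among their products feeds back on interferon production. Of 17 members tested, 2 were lower and 0 higher, against 0.25% and 0.641% of all genes tested. A difference below 0 was found for 16 members, against 46% of all genes. In 14 members both Pax7-465 libraries lay below both Pax3 libraries, against 14.6% of all genes. The median of the members was -0.34, beside 0.01 over all genes. With any of the 4 libraries left out 0 of the 17 passed, with medians between -0.39 and -0.27.

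Dhx58, which encodes the RNA sensor LGP2, was at 3.02 and 2.95 FPKM in Pax7-465 and at 4.6 and 5.22 FPKM in Pax3 libraries (-0.57, SE 0.10, adjusted p = 0.022). Irf7 was at 6.89 and 6.44 FPKM against 10.3 and 10.0 FPKM (-0.54, SE 0.11, adjusted p = 0.041). Bst2, the antiviral membrane protein tetherin, was at 14.8 and 16.0 FPKM against 19.9 and 22.5 FPKM (-0.43, SE 0.10, adjusted p = 0.083). Lgals3bp was the exception in direction, at 29.2 and 30.2 FPKM against 23.9 and 25.1 FPKM (0.27, SE 0.09, adjusted p = 0.27).

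Oas1g, an oligoadenylate synthetase outside the list and named after its values were seen, was also called lower, at 2.78 and 2.51 FPKM against 4.18 and 4.71 FPKM (-0.58, SE 0.12, adjusted p = 0.049). The proximal promoters of the interferon genes, the 250 bases before the RefSeq start (GRCm38.p6), were searched for the core of the interferon-stimulated response element, GAAANNGAAA on either strand. It was found in 5 of the 12 list members with a promoter (41.7%), namely Bst2, Isg15, Oas1a, Rsad2 and Stat2. The called members Dhx58 and Irf7 were not among those with a match. The core was also found in 251 of 9031 genes tested (2.78%), and in 9.09% of the 55 higher and 9.52% of the 21 lower called genes with a promoter. The promoters of Bst2, a list member that did not pass, and of Oas1g, both with values given here, are shown with the bases of the matches in capitals. In both, a pair of overlapping matches forms the capital run, which begins 130 bases before the start in Bst2 and 18 bases before it in Oas1g.
Bst2, chr8:71537473-71537722, minus strand: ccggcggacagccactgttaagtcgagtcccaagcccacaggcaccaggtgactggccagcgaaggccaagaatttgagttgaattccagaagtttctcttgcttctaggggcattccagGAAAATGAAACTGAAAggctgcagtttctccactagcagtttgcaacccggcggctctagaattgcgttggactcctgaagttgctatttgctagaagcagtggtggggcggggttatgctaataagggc
Oas1g, chr5:120887614-120887863, minus strand: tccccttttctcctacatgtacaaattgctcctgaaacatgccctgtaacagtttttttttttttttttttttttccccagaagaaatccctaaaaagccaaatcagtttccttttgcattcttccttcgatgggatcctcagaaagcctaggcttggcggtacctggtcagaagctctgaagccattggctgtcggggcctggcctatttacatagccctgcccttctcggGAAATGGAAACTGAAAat
A match is a description of the letters in this window and does not show that a factor binds there.

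Of the cholesterol synthesis genes, Lss, Mvk and Nsdhl were lower in Pax7-465 cells. Of 23 members tested, 3 were lower and 0 higher, against 0.25% of all genes lower. A difference below 0 was found for 22 members against 46% of all genes, and 15 had both Pax7-465 libraries below both Pax3 libraries against 14.6% of all genes. Their median was -0.19. Mvk, mevalonate kinase, was at 19.3 and 19.5 FPKM against 28.5 and 30.6 FPKM (-0.58, SE 0.08, adjusted p = 0.0044), and Nsdhl, a sterol dehydrogenase, was at 16.5 and 15.4 FPKM against 22.3 and 22.6 FPKM (-0.47, SE 0.09, adjusted p = 0.032). Mvd, the decarboxylase after mevalonate kinase in the pathway, was at 20.6 and 22.7 FPKM against 27.4 and 29.5 FPKM and did not pass (-0.38, SE 0.09, adjusted p = 0.084). Leaving out any of the 4 libraries left 2 calls, Lss and Mvk, and raised the adjusted p of Nsdhl to at most 0.18, and the medians then lay between -0.27 and -0.12. The sterol regulatory element core, TCACNCCAC on either strand, was found in the promoter of 1 of 16 members, Hmgcs1, and in 1.24% of the genes tested.

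**Figure D4:**
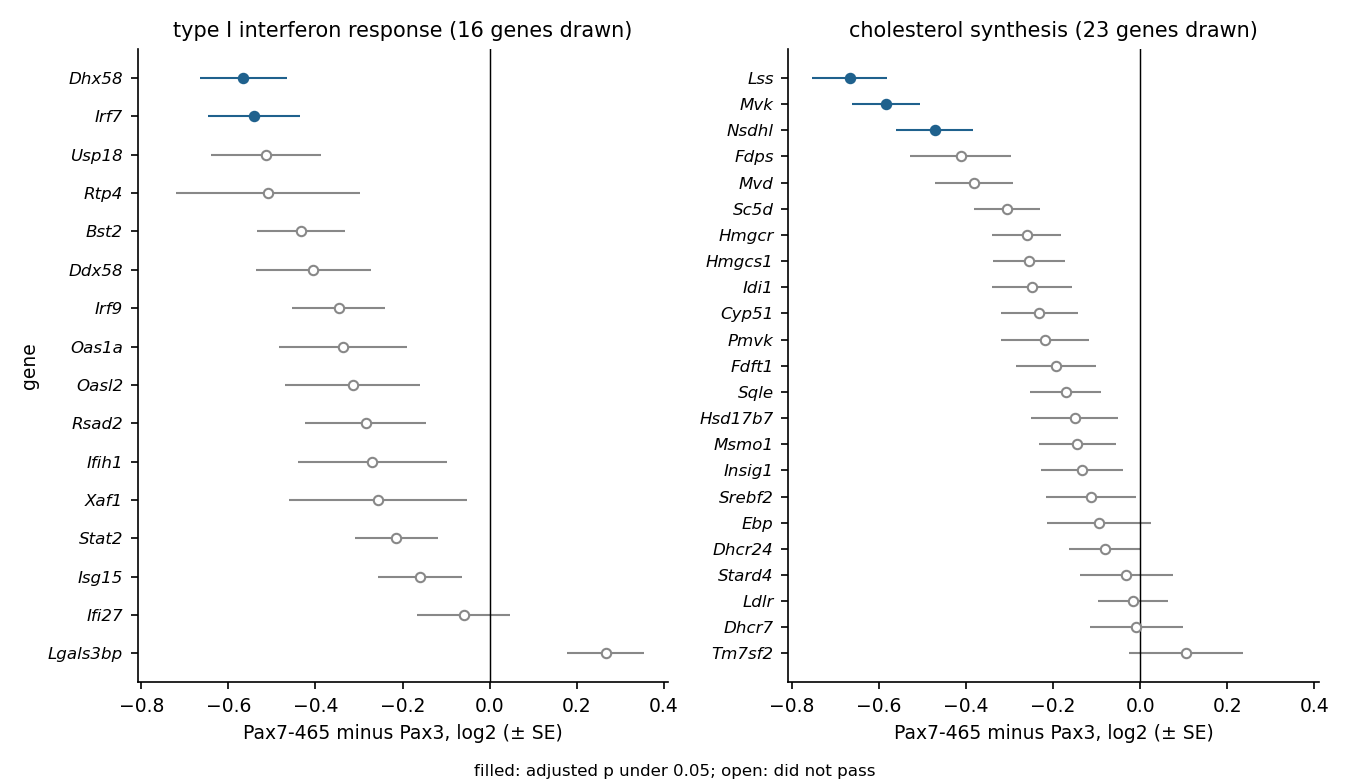
Log2 difference of Pax7-465 minus Pax3 with its standard error for 16 of the 17 tested genes of the type I interferon response (left) and all 23 of cholesterol synthesis (right), with filled points for an adjusted p under 0.05. All points but Lgals3bp on the left and Tm7sf2 on the right lie below 0, and 2 and 3 of them are filled.

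The other lists held few calls, and over all genes tested 0.641% were higher and 0.25% lower. Of 17 prohormone processing and granule genes, 0 passed, although 15 had a difference above 0 against 54% of all genes tested, led by Pcsk1 and Chgb (0.38, adjusted p = 0.16). Among 17 vesicle release genes 1 was higher, Syt7, a calcium sensor of exocytosis, at 47.4 and 47.9 FPKM against 35.6 and 36.4 FPKM (0.39, SE 0.07, adjusted p = 0.025). Among 5 peptide hormones Iapp alone passed. Among 14 Notch pathway genes the target gene Hey1 alone passed, at 8.78 and 9.11 FPKM against 4.92 and 5.67 FPKM (0.66, SE 0.12, adjusted p = 0.024). Syt7 and Hey1 did not pass when any of the 4 libraries was left out, with adjusted p up to 0.19 and 0.15. Kit was the only called gene of 7 in the neural crest and melanocyte list, Mybpc1 of 7 in the myogenic list and Rgs4 of 9 regulators of G-protein signalling, where Rgs10 did not pass (-0.62, SE 0.13, adjusted p = 0.062).

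In the fit by limma, 0 members passed of 9 pituitary transcription factors, 2 stem and folliculostellate genes, 19 cyclic AMP signalling genes, 16 immediate early genes, 10 MHC presentation genes, 21 axon guidance and adhesion genes, 25 channel genes, 29 Pax7 chromatin partners, 24 genes of endoplasmic reticulum folding, 30 proliferation genes and 30 ribosomal protein genes. Their medians lay between -0.10 and 0.07. The markers of other pituitary lineages were below the filter, with no value above 0.522 FPKM.

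Both groups were also set against the mean of the 3 full-length isoform groups, 2 of them GL+ and 1 GL-. None was full-length Q+GL-, so the truncation cannot be told apart from the Q and GL differences in this mean. Against this mean, 118 genes (0.983%) passed in Pax3 cells, 91 lower (0.758%) and 27 higher (0.225%), and 15 genes (0.125%) passed in Pax7-465 cells, 11 higher (0.0916%) and 4 lower (0.0333%). These comparisons share libraries with each other and with the comparison of Pax7-465 and Pax3, so their values are given side by side only, and the difference between the counts was not tested. Leaving out libraries changed these counts strongly, from 8 to 66 for Pax3 when a Pax3 library was left out and from 0 to 4 for Pax7-465 when a Pax7-465 library was left out. Without Pax3 replicate 1 the order turned, with 8 calls for Pax3 and 25 for Pax7-465. With 0 calls, without Pax7-465 replicate 2, 878 genes had an unadjusted p under 0.05 in limma. With quantile normalization 34.6% of the Pax3 calls were higher, against 22.9% on the deposited scale.

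Of the 76 genes higher in Pax7-465 other than Pax7, Pax3 cells had the lowest mean of the 5 groups in 56, and Pax7-465 cells the highest in 22. These genes were chosen by the difference between the same 2 groups, which by itself favours such places. The counts over all genes tested are not given, so these counts cannot show which group moved. In Syt7, Pax3 was at 35.6 and 36.4 FPKM and all 8 libraries of Pax7-465 and the isoforms lay between 45.5 and 49.5 FPKM. Pax7-465 differed from the isoform mean by 0.02 (SE 0.06, adjusted p = 0.98) and Pax3 by -0.38 (SE 0.06, adjusted p = 0.016). Luzp2, a leucine zipper protein named after its values were seen, was at 2.54 and 2.5 FPKM in Pax7-465 and at 0.841 to 1.16 FPKM in the other 8 libraries. It lay 0.77 (SE 0.10, adjusted p = 0.012) above the isoform mean in Pax7-465 cells and -0.10 (SE 0.10, adjusted p = 0.78) from it in Pax3 cells. Both genes had been called between Pax7-465 and Pax3. The limma p-values against the isoform mean reuse those libraries and are no separate evidence.

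Among the 11 genes that passed as higher in Pax7-465 than the isoform mean, Lamb3 had the largest excess (1.20, SE 0.12, adjusted p = 0.0034). It was followed by Mybpc1 (0.86), Cabp7 (0.84), Luzp2, Iapp (0.70), Lipn (0.67), Eln (0.64) and Timp2 (0.59). Of these, Mybpc1, Cabp7, Iapp, Lipn and Timp2 had a lower mean in Pax7-465 than in Q-GL- cells, with Lipn at 3.90 against 8.72 FPKM. Lamb3 was at 1.19 to 2.66 FPKM in the 4 GL+ libraries and at 5.51 and 6.67 FPKM in Q-GL- libraries, so that Pax7-465 (6.83 and 8.92 FPKM) lay above every isoform library. Eln, at 9.44 to 16.4 FPKM in the isoform libraries, was exceeded in the same way. Dhx58 lay 0.57 below the isoform mean in Pax7-465 cells (log2 -0.57, SE 0.08, adjusted p = 0.024), while Pax3 cells lay close to it (log2 -0.00033, SE 0.08). Dhx58 had also been called between Pax7-465 and Pax3, so the limma p-value against the isoform mean reuses those Pax7-465 libraries. Of the 30 lower genes, Pax3 cells had the highest mean of the 5 groups in 23 and Pax7-465 cells the lowest in 19. Here too the choice of the genes favours such places.

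For the interferon list the median was -0.11 for Pax7-465 and 0.24 for Pax3 against the isoform mean, with 1 lower and 1 higher call. For cholesterol synthesis it was -0.21 for Pax7-465, with 0 calls, and -0.0042 for Pax3, with 2 higher calls, beside medians over all genes of -0.01 and -0.03.

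Part of the genes that separated Pax7-465 from Pax3 also passed between the full-length isoforms, 44 of 76 higher and 6 of 30 lower ones. This was tested in the 6 isoform libraries, none of which is a Pax7-465 or Pax3 library, by comparing Q-GL- cells with the mean of Q+GL+ and Q-GL+ cells, in a contrast chosen once the values had been seen. Over all genes, 351 (2.92%) passed. Of the 76 genes higher in Pax7-465 cells, 70 (92.1%) were above 0 in Q-GL- cells, as were 58.5% of all genes tested. Of these 76, 44 (57.9%) passed as higher in Q-GL- cells and 0 as lower, while 2.3% of all genes tested passed as higher. The 44 make up 15.9% of the 276 genes higher in Q-GL- cells. Of the 30 genes lower in Pax7-465, 23 (76.7%) lay below 0, against 41.5% of all genes, and 6 (20%) passed as lower and 0 as higher, while 0.625% of all genes passed as lower. These 6 are 8% of the 75 genes lower in Q-GL- cells. In the same contrast 15 of 17 interferon members lay below 0 (median -0.23, 3 lower and 1 higher call). For cholesterol synthesis 20 of 23 members did (median -0.07, 1 lower and 0 higher calls). The median over all genes was 0.03. Higher genes made up 78.6% of the isoform calls on the deposited scale, 65.2% with quantile normalization and 68.5% with median centring.

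The 5 groups shared an estimate of the spread in that fit. In a fit of the 6 isoform libraries alone, in which 4.5% of all genes passed, 46 of the 76 (60.5%) passed as higher and 6 of the 30 as lower, against 3.39% and 1.11% of all genes. With each isoform library left out in turn, 31 to 39 of the 76 and 1 to 4 of the 30 passed in the same direction. Of the 76, the fewest were left without Q-GL- replicate 1 (31) and the most without either Q+GL+ library (39). Of the 30, 1 was left without either Q-GL- library, and 0 of both sets passed in the opposite direction in all 6 fits by limma.

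The size of the isoform difference varied among the genes. Rgs4 was at 1.71 to 2.15 FPKM in the 4 GL+ libraries and at 19.9 and 20.5 FPKM in Q-GL- libraries, a difference of 2.86 (SE 0.09, adjusted p = 2.9e-08), while Pax7-465 cells (5.68 and 5.37 FPKM) lay between. Lipn differed by 2.49 and Klk14 by 2.51 between the isoforms, and in both the Pax7-465 libraries again lay between those of GL+ and Q-GL- cells. Timp2 was at 65.8 and 63.1 FPKM in Q-GL- cells and at 58.8 and 63.8 FPKM in Pax7-465 cells, so that these groups overlapped. In 49 of the 76 genes the Q-GL- mean was above the Pax7-465 mean. Pcsk2, which did not pass between Pax7-465 and Pax3, was at 35.8 and 36.6 FPKM in Q-GL- and at 11.7 to 16.2 FPKM in GL+ libraries.

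**Figure D5:**
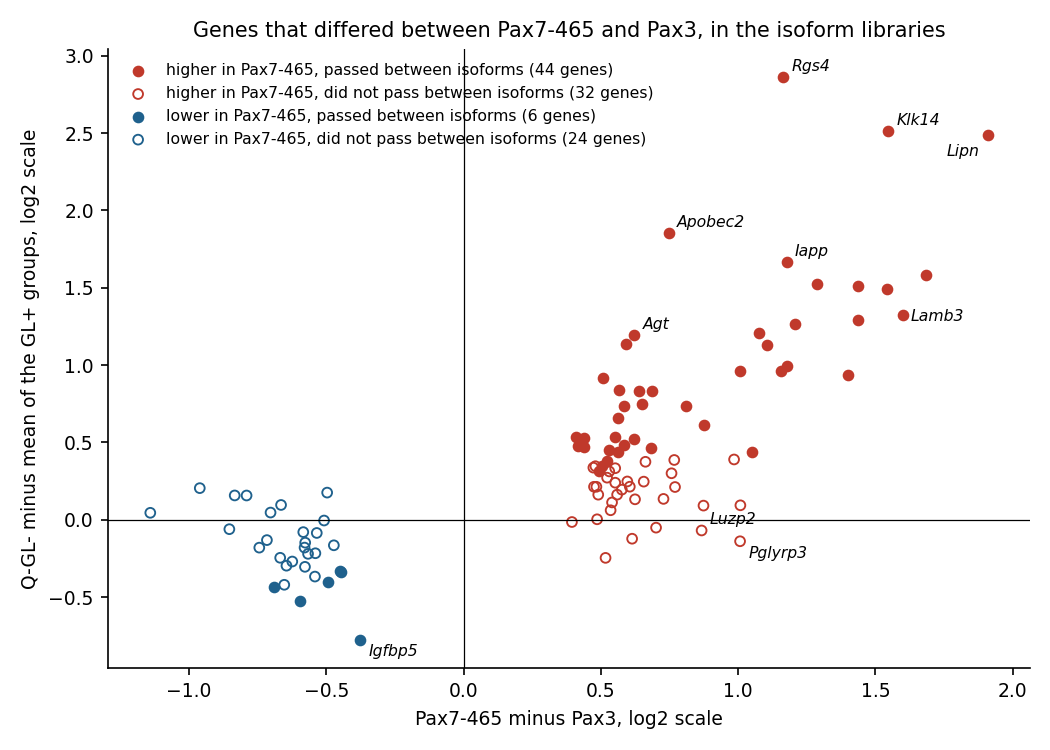
Each point is a gene that passed between Pax7-465 and Pax3, without Pax7, with that log2 difference on the horizontal axis and the log2 difference of Q-GL- minus the mean of the GL+ groups on the vertical axis. Filled points passed in both comparisons, 44 red ones higher in both and 6 blue ones lower in both, and no filled point lies in the opposite quadrants.

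The promoters of the called genes were searched for motifs known for this family. RefSeq promoters matched 55 of the 77 higher and 21 of the 30 lower genes. The palindromic homeodomain motif TAATTA, the same on both strands, was found in 6 of the 55 higher genes (10.9%), namely Dnajb4, Fetub, Gm13373, Luzp2, Morc4 and Wfdc16, in 1 of the 21 lower genes, Bcar3, and in 265 of 9031 genes tested (2.93%). The paired domain core GTCAC, searched with its complement GTGAC, was found in 26 of the 55 (47.3%) and 8 of the 21 (38.1%), beside 45.9% of the genes tested. The longer palindromes TAATNNATTA and TAATNNNATTA were found in 0 of the called genes, beside 0.166% and 0.221% of the genes tested.
Of the genes with TAATTA, Luzp2 and Wfdc16 had the largest differences between Pax7-465 and Pax3, and their promoters are shown with the match in capitals. Wfdc16, a protein of the WAP domain family also named after its values were seen, was at 1.38 and 1.19 FPKM in Pax7-465 and at 0.0527 and 0 FPKM in Pax3 libraries (1.15, SE 0.14, adjusted p = 0.003).
Luzp2, chr7:54834995-54835244, plus strand: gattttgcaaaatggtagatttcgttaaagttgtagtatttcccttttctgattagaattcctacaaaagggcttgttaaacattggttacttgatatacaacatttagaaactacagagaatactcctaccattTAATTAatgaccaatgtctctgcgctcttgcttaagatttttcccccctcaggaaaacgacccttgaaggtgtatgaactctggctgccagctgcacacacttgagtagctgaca
Wfdc16, chr2:164638803-164639052, minus strand: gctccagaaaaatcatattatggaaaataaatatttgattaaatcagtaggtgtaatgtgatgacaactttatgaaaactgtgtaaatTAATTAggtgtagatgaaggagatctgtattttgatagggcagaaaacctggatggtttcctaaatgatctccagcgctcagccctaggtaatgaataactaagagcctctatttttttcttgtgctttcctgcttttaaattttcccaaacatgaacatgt
The match begins 115 bases before the start in Luzp2 and 162 bases before it in Wfdc16.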

How the data were processed

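RNA-Seq was carried out on ribosome-depleted RNA from AtT-20 pools. Per the study's methods, the authors trimmed reads with Trimmomatic, aligned them with TopHat2 to the mouse genome with the Ensembl GRCm38.77 annotation, and quantified genes with HOMER. For the RNA-Seq data, versions of these tools are not given in the sources used here. The deposited values were taken as FPKM. No source names this unit in words, and it was read from the values. Absolute depth is unknown and limits the precision of weakly expressed genes. The table also holds 4 columns of values that match no labelled sample, and they were not used.

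Values were transformed to log2(FPKM + 1). Genes reaching 1 FPKM in 2 or more of the 4 libraries were fitted in limma 3.58.1 (R 4.3.3, statmod 1.5.0) with trended, robust variance over 10 libraries of 5 groups, and p-values were adjusted by Benjamini-Hochberg over all genes tested. The 2 libraries labelled NoTag were left out of the fit, since their summed FPKM stood apart. Their effect was tried as an alternative, as were other scalings, filters, a pseudocount of 0.1, a block and the omission of libraries. The procedure was tried on simulated data with independent normal noise. Such data meet the assumptions of the fit, so the trial does not bear on technical replicates or on scaling differences between libraries. Named genes were up to 12 per direction with the largest changes among those that passed, averaged 1 FPKM or more where they were higher and did not overlap, passing over predicted genes without a given name (Gm and Rik symbols), plus up to 4 members of each of 26 lists and genes the study discusses. Members and lists were chosen with earlier results of these data known. Promoters came from RefSeq (GRCm38.p6). Figures were drawn with matplotlib 3.10.9. Values of some single genes are not reported here, while the counts include them.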

Additional observations from a re-analysis of the deposited data

Results flagged for a closer look

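The 2 NoTag libraries, which the comparisons do not use, held 41 genes at 1 FPKM or more in both that were listed at 0 in each of the other 10 libraries. Pde2a, a cyclic nucleotide phosphodiesterase, was at 11.5 FPKM in each NoTag library and at 0 in the others.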

How the results depend on the processing

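No value changed direction past the threshold. Between Pax7-465 and Pax3, quantile normalization gave 211 calls (136 higher, 75 lower), median centring 141 (50 lower), a log2 change of at least 1 gave 22 (21 and 1) and an adjusted p under 0.01 gave 40 (36 and 4). Omitting any 1 library gave 44 to 97 calls, 31 to 71 higher and 4 to 26 lower. For Pax7-465 against the isoform mean, the same 4 settings gave 37 (25, 12), 26 (18, 8), 1 (1, 0) and 5 (5, 0), and all 12 libraries gave 32 (21, 11). Its lower calls were 1 without the robust option, 2 without a filter, 7 with a filter of 5 FPKM and 7 with the block, and omitting libraries gave 0 to 25 calls (0 to 16, 0 to 9). For Pax3 against the isoform mean, quantile normalization gave 188 calls (65 higher), median centring 45 higher, a log2 change of at least 1 gave 6 (0 higher, 6 lower), an adjusted p under 0.01 gave 17 (0, 17), and omission gave 8 to 103 (0 to 22, 8 to 81). For Q-GL- against the GL+ groups, quantile normalization gave 569 calls (198 lower), median centring 145 lower, the stricter thresholds 28 (27, 1) and 144 (128, 16), and omission 95 to 450 (84 to 350, 11 to 100). The cause of these changes was not tested, except that stricter thresholds pass fewer genes and omission leaves fewer libraries.

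With the replicate number as a block, 120 genes were called between Pax7-465 and Pax3 (86 higher, 34 lower). Same-numbered libraries deviated together with r = 0.221, over only 2 pairs, and the labels state no shared day or culture, so the numbers were not taken to pair the libraries. Unknown depth limits the values of genes near 1 FPKM.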

Other observations

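The NoTag libraries, from cells whose construct is not described further here, held several of the genes that were higher in Pax7-465 than in Pax3 cells at higher levels still. Klk14 was at 11.6 and 11.7 FPKM, Mybpc1 at 18.9 and 19.3 FPKM, Cabp7 at 6.80 and 6.89 FPKM and Timp2 at 100 and 107 FPKM. Lipn, at 3.31 and 3.62 FPKM, was below both Pax7-465 libraries, and Lamb3, at 4.11 and 3.29 FPKM, was too. Chst15, which was lower in Pax7-465 than in Pax3 cells, was at 3.33 and 3.01 FPKM, above both Pax3 libraries. These values were not tested, as the summed FPKM of the NoTag libraries (627305 and 666609) stands apart from all others.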
